A study of Mus musculus with 8 samples.

Results

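Cell cycle and DNA replication genes were examined as a set of 40 named genes on 8 Illumina MouseRef-8 v2.0 bead arrays of mouse CD4 T cells. The members were taken by name, and each gene was measured by its brightest probe among those whose signal exceeded the negative controls (detection p below 0.01) in 2 or more of the 8 arrays. Of the 40 genes 30 had such a probe. The 30 probes stand among 11047 probes that passed the same filter in the whole series. Total RNA came from T cells that were sorted out of the mesenteric lymph nodes. The mice were Mir-21-/-, which lack the microRNA miR-21 (KO), or wild-type littermates (WT). From each genotype a CD4+CD25High and a CD4+CD45High population were sorted, and each was profiled after 30 min with anti-CD3 and anti-CD28 antibodies (stimulated) and without them (unstimulated). The 8 groups were therefore KO and WT CD25High stimulated, KO and WT CD45High stimulated, KO and WT CD25High unstimulated, and KO and WT CD45High unstimulated, with 1 array each. The labels give neither age, sex and strain of the mice, nor the CD45 isoform of the gate, nor the number of animals behind an array.

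A cell that leaves rest loads MCM helicases onto replication origins in G1 phase, is carried into S phase by E2F transcription factors and cyclin E with its kinase, copies its DNA with nucleotides made by enzymes such as ribonucleotide reductase, and then divides under cyclin B with CDK1, the Polo and Aurora kinases and the anaphase-promoting complex. Most mRNAs of this machinery are made periodically, through E2F sites for the S phase genes and through CHR elements bound by the DREAM and MuvB complexes for the mitotic genes. In T cells they are low at rest and high in dividing cells, and regulatory T cells, which carry Foxp3 and high CD25, are known to cycle more than naive T cells in lymphoid organs.

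All values below are log2 intensities after background correction and quantile normalization, and a difference is a difference of such values for 1 probe. With 1 array per combination no group has a replicate, so matched combinations served as pairs: 4 pairs for population, 4 for stimulation and 4 for genotype. A probe was called when limma's adjusted p (Benjamini-Hochberg over all 11047 probes) was under 0.05. The p-values and the SEs rest on the spread between those pair differences, which limma draws toward the spread of all probes. They measure no spread between replicates. The array of KO CD25High stimulated cells stood apart, with a median correlation with the other arrays of 0.888 and 9208 probes detected, against 0.938 to 0.965 and 9543 to 10477 probes for the other arrays, so results are also given without its pair. Regulatory T cell markers differed between the populations in the direction of the labels, while CD45, the marker of the other gate, was not among the markers read. Foxp3, the regulatory T cell transcription factor, had log2 values of 11.51, 11.81, 11.24 and 11.10 in CD25High cells, against 5.70, 6.25, 5.47 and 5.61 in CD45High cells, and all 10 passing regulatory T cell markers were called higher in CD25High cells. Of 7 passing general T cell markers none was called between the populations, with the list at 10.31 to 11.12 in CD25High arrays, against 11.16 to 11.33 in CD45High arrays. Mir21 itself was not analysed here, so the genotype labels were not checked on the deleted gene.

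Of the 40 members, 36 had a probe under their symbol or an older one. Origin licensing (8 of 8), nucleotide supply (4 of 4) and G1 to S control (5 of 5) passed the filter whole. Of the mitotic entry kinases and cyclins 4 of 6 passed, of the chromosome, spindle and passenger complex genes 6 of 10, of the fork and checkpoint genes 2 of 5, and of the anaphase-promoting complex genes 1 of 2. Hells, Chek1, Ccna2, Ccnb2, Bub1 and Ube2c had probes that were detected on 0 of 8 arrays, and Mki67, Gins2, Aurkb and Kif20a had no probe under a matched symbol. Cdk1 is listed under its older name Cdc2a, and Gsg2, the histone H3 kinase Haspin, under that older name.

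Of the 30 passing members, 18 were detected on all 8 arrays. In CD25High cells 27 to 30 of them were detected per array, against 19 to 22 in CD45High cells. Cdc6, Rrm2, Ccne1, Ccnb1, Cdk1, Cdca8, Bub1b and Kif11 were detected on no CD45High array. Members that passed through their CD25High values alone were selected on those values. Counts and medians over the 30 therefore do not stand as support for a difference between populations and are given as a description. Single tests of such members between populations, those of Rrm2, Cdk1 and Cdca8 among them, are likewise no support.

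**Figure D1:**
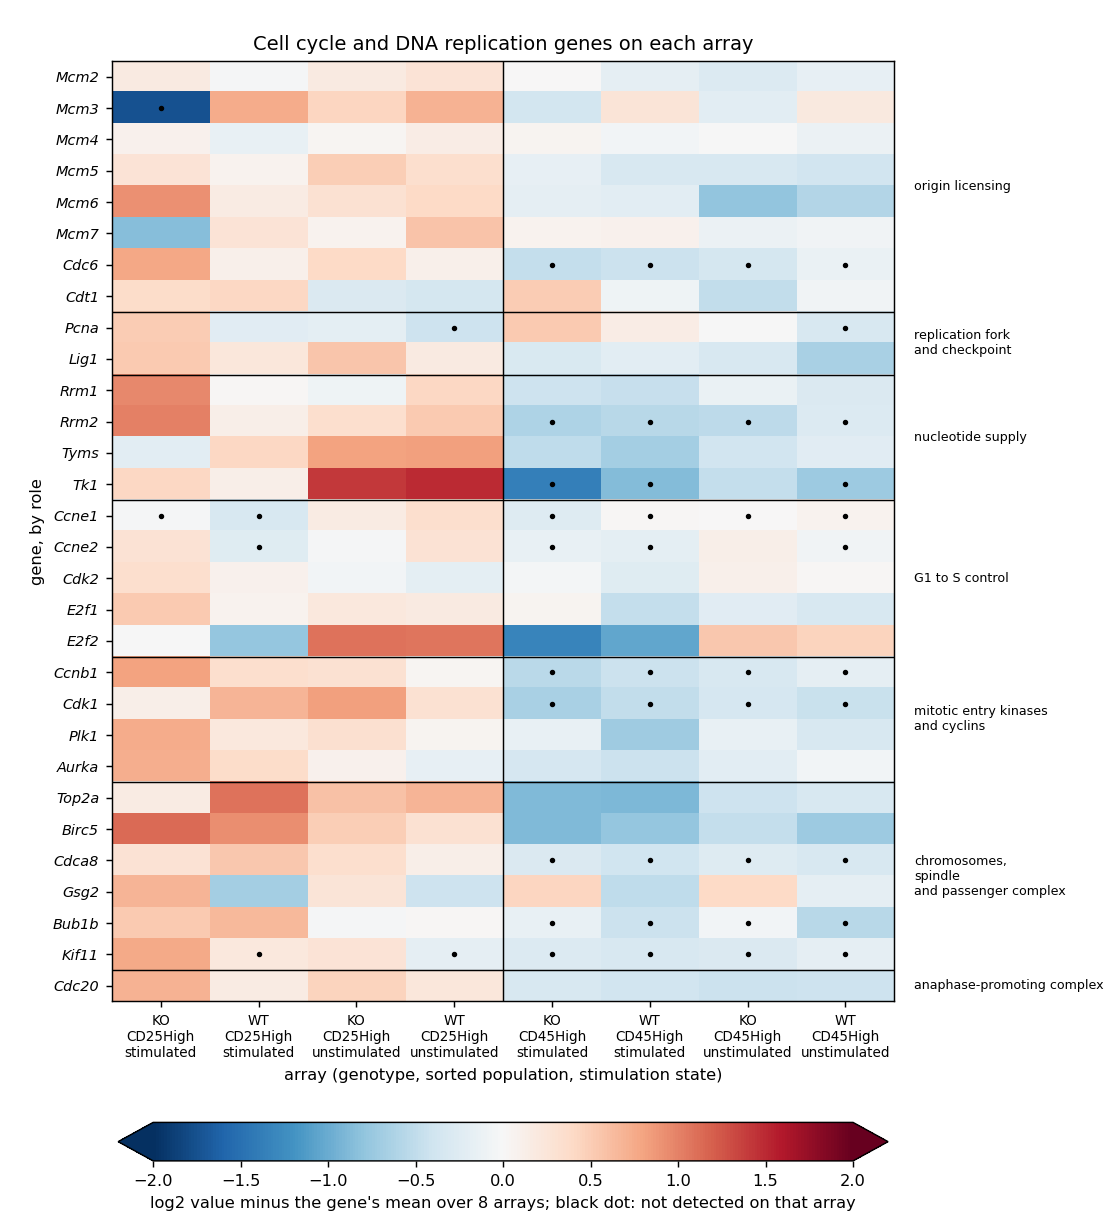
Log2 value of each of the 30 passing members (rows, grouped by role) on each of the 8 arrays (columns, CD25High left of CD45High), drawn as the deviation from that gene's mean over the arrays. Black dots mark arrays on which the probe was not detected, which lie mostly in the CD45High columns, and the Mcm3 value of the KO CD25High stimulated array is the lowest of its row.

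To show the regulatory sequence of these genes, promoter windows from 250 bases before to 50 bases after the transcription start were taken from RefSeq (GRCm38.p6), which held 38 windows for 34 of the 40 members. Windows were searched on both strands for E2F motifs (TTTCGCGC or TTTGGCGC), for the CHR element (TTTGAA or TTCGAA, found with TTCAAA on the other strand, while TTCGAA reads alike on both) and for the CCAAT box. An E2F motif stood in 21.1% of the members' windows, against 0.813% of all 32851 windows of the same length. The CHR letters stood in 42.1% of the members' windows, against 19.2% of all windows, and CCAAT stood in 65.8%, against 37.4%. A match describes the letters only. Below are 3 genes that rose in CD25High cells and hold 3 different mixtures of these motifs, and E2f2, which fell with stimulation, with matches in capitals. The Mcm6 window (chr1:128359656-128359955, minus strand) holds 3 E2F matches, of which 2 overlap in a single run of capitals, and 2 CCAAT boxes. The Cdk1 window (chr10:69352863-69353162, minus strand) holds 1 E2F match, 2 CHR matches and 3 CCAAT boxes. The Top2a window (chr11:99024140-99024439, minus strand) holds 4 CHR matches and 6 CCAAT boxes and no E2F match. The first E2f2 window (chr4:136172024-136172323, plus strand) holds 1 E2F match and 1 CCAAT box.
Mcm6: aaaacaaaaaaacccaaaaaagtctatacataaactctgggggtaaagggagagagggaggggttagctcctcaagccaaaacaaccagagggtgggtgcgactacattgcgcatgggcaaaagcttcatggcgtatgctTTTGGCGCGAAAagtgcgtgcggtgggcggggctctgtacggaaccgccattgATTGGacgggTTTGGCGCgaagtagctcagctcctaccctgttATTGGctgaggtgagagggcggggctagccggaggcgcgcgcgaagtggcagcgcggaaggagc
Cdk1: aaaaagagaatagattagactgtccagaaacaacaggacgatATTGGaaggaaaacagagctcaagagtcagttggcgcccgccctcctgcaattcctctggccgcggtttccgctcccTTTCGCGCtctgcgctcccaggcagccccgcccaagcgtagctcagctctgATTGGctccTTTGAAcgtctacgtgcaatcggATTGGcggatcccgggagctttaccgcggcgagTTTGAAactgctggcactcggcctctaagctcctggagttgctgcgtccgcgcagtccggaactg
Top2a: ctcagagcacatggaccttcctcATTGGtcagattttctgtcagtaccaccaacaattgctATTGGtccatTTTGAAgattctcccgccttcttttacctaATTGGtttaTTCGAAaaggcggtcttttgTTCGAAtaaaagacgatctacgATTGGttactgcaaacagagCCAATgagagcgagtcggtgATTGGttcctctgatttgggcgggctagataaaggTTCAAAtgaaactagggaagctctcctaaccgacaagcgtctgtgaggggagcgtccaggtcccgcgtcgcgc
E2f2: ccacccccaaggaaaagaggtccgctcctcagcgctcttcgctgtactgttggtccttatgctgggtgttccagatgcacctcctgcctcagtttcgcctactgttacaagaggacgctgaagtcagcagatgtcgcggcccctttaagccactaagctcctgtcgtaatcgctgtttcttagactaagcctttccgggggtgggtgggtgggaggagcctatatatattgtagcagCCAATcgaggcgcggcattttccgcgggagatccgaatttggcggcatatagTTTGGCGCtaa

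The comparison of the sorted populations asked which of these genes differ between CD25High and CD45High cells. Tk1, Birc5, Top2a and 9 other members were called higher in CD25High cells. The calls of Rrm2, Cdk1 and Cdca8 among them are a description only. Over 4 pairs, 12 of the 30 members were called higher in CD25High cells and 0 lower (limma), where 5.4% of all probes tested were called higher and 2.89% lower. Among the 18 members detected on all 8 arrays, 8 were called higher, against 4.54% of the 7756 probes detected on all arrays. The median difference was 0.62 for the 30 members and 0.62 for those 18, against -0.03 for all probes, and that of the 30 became 0.20 without background correction. By role, 3 of 4 passing nucleotide supply genes, 2 of 4 mitotic entry genes, 3 of 6 chromosome and spindle genes, 2 of 8 origin licensing genes, 1 of 2 fork genes, 1 of 1 anaphase-promoting complex genes and 0 of 5 G1 to S genes were called. Of the 30 members 17 were higher in every CD25High array than in any CD45High array, where 6.72% of all probes were, and 0 were lower in that way, where 5.58% of all probes were. In sorted bulk RNA, more cells in cycle and more mRNA per cycling cell cannot be told apart.

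Leaving out the pair of the KO CD25High stimulated array left 14 members called. Without the KO unstimulated pair 2 remained past the threshold, and without the WT unstimulated or the WT stimulated pair 3 each, on 3 pairs and 2 residual degrees of freedom. Without background correction 7 members were called, and with all 25697 probes tested 5.

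**Figure D2:**
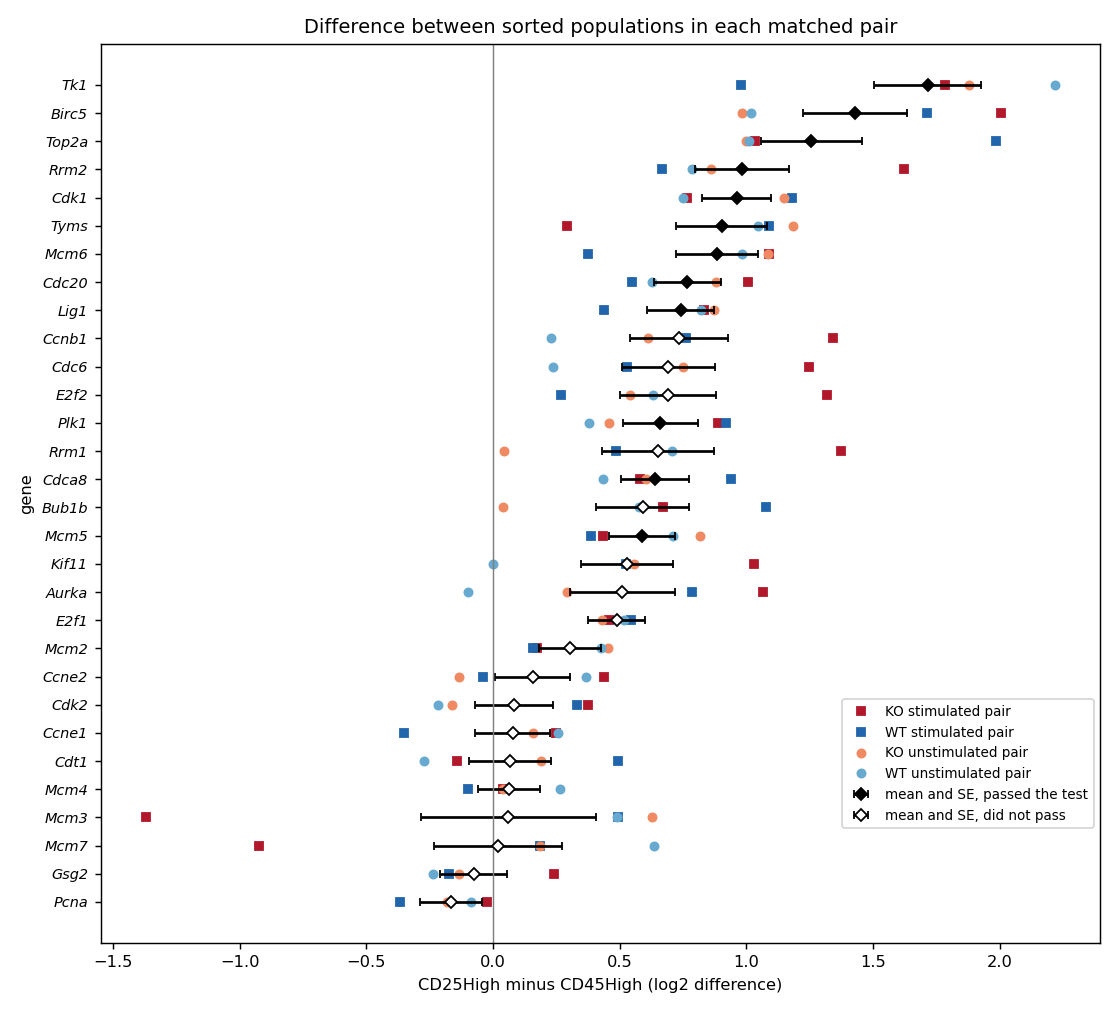
CD25High minus CD45High log2 difference (horizontal axis) of each of the 30 members, ordered by mean, with coloured points for the 4 matched pairs and diamonds with bars for limma's mean and SE, filled where the adjusted p was under 0.05. The 12 filled diamonds lie between 0.59 and 1.72, the KO stimulated pair lies far below the others for Mcm3 and Mcm7, and the differences of the 8 members detected on no CD45High array are drawn against values at background.

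Values on each array are given below in the order KO stimulated, WT stimulated, KO unstimulated and WT unstimulated within each population. In nucleotide supply, Tk1, the thymidine kinase of the salvage pathway, had 5.997, 5.70, 6.999 and 7.08 in CD25High cells, against 4.21, 4.72, 5.12 and 4.86 in CD45High cells. Every CD25High array was above every CD45High array, and Tk1 was detected on 1 of 4 CD45High arrays. Its difference of 1.72 ± 0.21 (SE, 4 pairs) passed limma's test with an adjusted p of 0.00739, and its call held in 11 of 11 alternatives, over which the difference ran from 0.68 (without background correction) to 1.96 and the adjusted p reached 0.0490. With 3 of the 4 CD45High arrays not above background, its size rests on values near the detection limit. Rrm2, the small subunit of ribonucleotide reductase, had 5.88, 4.99, 5.21 and 5.39 in CD25High cells, against 4.25, 4.32, 4.35 and 4.61 in CD45High cells, where no array detected it. It was at least 1.42-fold higher, this bound being set against the lowest detected signal of each CD45High array. Rrm2 passed the filter through CD25High arrays alone, so its call (limma adjusted p 0.0278) is a description. Tyms, the thymidylate synthase, had 5.95, 6.57, 6.97 and 6.98 in CD25High cells, against 5.66, 5.48, 5.78 and 5.94 in CD45High cells. The KO stimulated CD25High array was the lowest of its group and the difference was 0.90 ± 0.18 (limma adjusted p 0.0326), or 1.11 without that pair. Rrm1, the large reductase subunit, differed by 0.65 ± 0.22 and was not called (limma adjusted p 0.137), although its CD25High arrays were all above its CD45High arrays.

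In origin licensing, 2 of the 6 subunits of the MCM2-7 helicase were called. Mcm6 had 9.74, 8.99, 9.13 and 9.23 in CD25High cells, against 8.64, 8.61, 8.05 and 8.25 in CD45High cells. It rose by 0.88 ± 0.16 (limma adjusted p 0.0251) with no overlap between populations. Mcm5 had 9.41, 9.22, 9.64 and 9.48 in CD25High cells, against 8.98, 8.83, 8.82 and 8.76 in CD45High cells, and rose by 0.59 ± 0.13 (limma adjusted p 0.0467), also without overlap. The subunits Mcm2, Mcm4 and Mcm7 were not called, at 0.30 ± 0.12, 0.06 ± 0.12 and 0.02 ± 0.25. Mcm3 had 4.68, 7.16, 6.84 and 7.11 in CD25High cells, against 6.04, 6.67, 6.21 and 6.62 in CD45High cells. Its difference was 0.06 ± 0.35 over 4 pairs and 0.54 without the pair of the KO CD25High stimulated array, the only array on which Mcm3 was not detected, and the limma adjusted p was then 0.0306. Cdc6, which loads the helicase, had 5.56, 4.89, 5.19 and 4.89 in CD25High cells, against 4.31, 4.37, 4.44 and 4.65 in CD45High cells. It was detected on all CD25High arrays and no CD45High array, yet it was not called (limma adjusted p 0.0736). Cdt1, its partner in loading, differed by 0.07 ± 0.16 and had 2 pairs in each direction.

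At the replication fork, Lig1, the ligase that joins Okazaki fragments, had 7.33, 7.03, 7.35 and 6.98 in CD25High cells, against 6.50, 6.59, 6.48 and 6.15 in CD45High cells. It rose by 0.74 ± 0.13 (limma adjusted p 0.0231) with no overlap. Pcna, the sliding clamp of DNA polymerases, had 5.57, 4.84, 4.88 and 4.65 in CD25High cells, against 5.60, 5.21, 5.06 and 4.74 in CD45High cells. Pcna was detected on 3 of 4 arrays of each population. It was lower in CD25High cells in all 4 pairs, as 19% of all probes were. Its mean difference of -0.17 ± 0.12 was not called (limma adjusted p 0.442).

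No member of G1 to S control was called by its brightest probe. E2f1, an activator E2F, had 6.03, 5.57, 5.71 and 5.69 in CD25High cells, against 5.57, 5.02, 5.28 and 5.18 in CD45High cells. Its pair differences were the most even of the 30 members, from 0.43 to 0.55, and with a mean of 0.49 ± 0.11 it missed the threshold narrowly (limma adjusted p 0.0501). E2f2, another activator, had 8.14, 7.37, 9.22 and 9.22 in CD25High cells, against 6.82, 7.10, 8.68 and 8.59 in CD45High cells. The populations overlap, since the stimulated CD25High arrays lie below the unstimulated CD45High arrays. The difference of 0.69 ± 0.19 was not called (limma adjusted p 0.0805), while a second E2f2 probe gave 0.78 ± 0.17 and was called (limma adjusted p 0.0460). The cyclin E gene Ccne2 and its kinase Cdk2 differed by 0.16 ± 0.15 and 0.08 ± 0.15, neither called. Ccne1 had 4.73, 4.42, 4.91 and 5.07 in CD25High cells, against 4.48, 4.77, 4.76 and 4.82 in CD45High cells, where no array detected it. The populations overlap, and Ccne1 was not called (limma adjusted p 0.778).

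In mitotic entry, Cdk1, the kinase that drives mitosis, had 5.25, 5.81, 5.94 and 5.43 in CD25High cells, against 4.48, 4.62, 4.79 and 4.68 in CD45High cells, where no array detected it. It was at least 1.68-fold higher by the bound used for Rrm2. Cdk1 also passed the filter through CD25High arrays alone, so its call (limma adjusted p 0.0126) is a description. Plk1, the Polo kinase, had 6.28, 5.75, 5.85 and 5.60 in CD25High cells, against 5.39, 4.83, 5.40 and 5.22 in CD45High cells, and rose by 0.66 ± 0.15 (limma adjusted p 0.046). Both genes separated the populations without overlap. Ccnb1, the cyclin partner of CDK1, had 5.63, 5.16, 5.13 and 4.87 in CD25High cells, against 4.29, 4.40, 4.52 and 4.64 in CD45High cells. No CD45High array detected Ccnb1, and it was not called (limma adjusted p 0.0715). Aurka, the Aurora kinase of the spindle poles, differed by 0.51 ± 0.21 with 1 pair below 0 and was not called (limma adjusted p 0.197).

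Among the chromosome and spindle genes, Birc5, which encodes survivin of the chromosomal passenger complex, had 7.004, 6.81, 6.37 and 6.17 in CD25High cells, against 4.999, 5.10, 5.39 and 5.15 in CD45High cells. It rose by 1.43 ± 0.21 or 2.69-fold (limma adjusted p 0.0129), and all 3 of its passing probes were called, at 1.29, 1.43 and 1.52. Top2a, the topoisomerase that untangles chromosomes, had 6.48, 7.41, 6.90 and 7.004 in CD25High cells, against 5.44, 5.43, 5.90 and 5.995 in CD45High cells. It rose by 1.26 ± 0.20 or 2.39-fold (limma adjusted p 0.0167), and the WT stimulated pair showed a larger difference than the other 3. Cdca8, the borealin subunit of the passenger complex, had 5.07, 5.33, 5.12 and 4.89 in CD25High cells, against 4.49, 4.38, 4.52 and 4.46 in CD45High cells. No CD45High array detected Cdca8, which was at least 1.18-fold higher in CD25High cells, and its call (limma adjusted p 0.0375) is likewise a description. Bub1b, a spindle checkpoint kinase, and Kif11, the spindle motor Eg5, were also detected on no CD45High array and were not called (limma adjusted p 0.111 and 0.143). Bub1b was at least 1.23-fold higher in CD25High cells by the same bound, and Kif11 gave no bound above 1. Cdc20, the activator of the anaphase-promoting complex, had 7.003, 6.48, 6.76 and 6.53 in CD25High cells, against 5.995, 5.93, 5.87 and 5.90 in CD45High cells, and rose by 0.77 ± 0.13 (limma adjusted p 0.0215) without overlap.

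Probes of the same gene did not always agree on the call. The second passing probes of Rrm2 and Tyms gave 0.48 ± 0.14 and 0.50 ± 0.19 and were not called (limma adjusted p 0.105 and 0.170). Lig1 had a second probe that was called at 0.56 ± 0.12 and another that was not, at 0.21 ± 0.18. The other passing Mcm6 probes gave 0.57 and 0.62, and those of Cdc20 gave 0.71 and 0.46, all in the same direction and none called.

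Within stimulated cells 4 members were called higher in CD25High cells and 0 lower, where 4.68% of all probes were called higher and 2.15% lower. These were Birc5 (1.86 ± 0.16), Top2a (1.51 ± 0.26), Plk1 (0.90 ± 0.15) and Tk1 (at least 2.00-fold, with neither stimulated CD45High array detecting it), with limma adjusted p from 0.00961 to 0.0402. Within unstimulated cells, where 1.78% of all probes were called higher and 0.597% lower, only Tk1 was among the 30, with 1 of 2 CD45High arrays detecting it (limma 2.05 ± 0.24, adjusted p 0.0242). The difference between these states was called for no member and for no probe by limma (3 members and 1055 probes at an unadjusted p under 0.05). By its brightest probe Birc5 had a population difference larger by 0.86 ± 0.23 in stimulated than in unstimulated cells (limma adjusted p 0.485), and Aurka one larger by 0.83 ± 0.26 (limma adjusted p 0.509). Split by genotype, 0 members were called in KO cells (17 at an unadjusted p under 0.05) and 0 in WT cells (14 unadjusted), where 1.08% and 0.652% of all probes were called higher and 0.199% and 0.0543% lower. An unadjusted p under 0.05 (limma) was reached by 20.7% of all probes in KO cells and by 12.1% in WT cells. These splits rest on 2 pairs each, and leaving out 1 pair moved the counts from 0 to 19 in stimulated and from 0 to 15 in unstimulated cells, from 0 to 9 in KO cells and from 0 to 4 in WT cells.

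Of 121 other genes of the pathway, 82 passed the filter, and 12 of these (14.6%) were called higher and 2 (2.44%) lower in CD25High cells, where 5.4% of all probes were called higher and 2.89% lower. In origin recognition and firing 2 of 13 were called, Mcm10, a replication initiation factor (1.77 ± 0.13, limma adjusted p 0.00143), and Cdc45, the helicase cofactor (0.89 ± 0.13, limma adjusted p 0.0127). Mcm10 had 6.38, 6.03, 6.47 and 6.35 in CD25High cells, against 4.29, 4.35, 4.90 and 4.59 in CD45High cells, so that its lowest CD25High array exceeded its highest CD45High array. Mcm10 was detected on 5 arrays in all. Its KO stimulated, WT stimulated and WT unstimulated CD45High values lay below the lowest detected signals of those arrays (4.91, 4.79 and 4.88). The size of its difference therefore rests on values near the detection limit. Of 23 polymerase and fork genes 4 were called higher: Uhrf1, which guides maintenance DNA methylation (1.52 ± 0.14), Fen1, the flap endonuclease (0.66 ± 0.13), and Pole and Chaf1a, which no CD45High array detected (at least 1.45-fold and 1.64-fold). Of 20 condensin, kinetochore and spindle genes 5 were called higher, namely Prc1, the midzone bundling protein (1.48 ± 0.15), Nusap1 (1.01 ± 0.23), Kif15 (0.69 ± 0.14), Incenp (0.51 ± 0.11) and Kif2c (at least 1.23-fold). The calls of Pole, Chaf1a and Kif2c, which passed the filter through CD25High arrays alone, are a description. Kif15 was detected on 5 arrays and Cdc45 on 6, so their differences rest in part on values not above background. Among 13 regulators of the E2F, RB and DREAM group, E2f3 was called higher (0.60 ± 0.14). The 2 lower calls, a share near that of all probes, were Cdkn1b and Cdkn2d, inhibitors of cyclin-dependent kinases. Cdkn1b, or p27, fell by 0.82 (SE 0.15, limma adjusted p 0.0246) and Cdkn2d, or p19, fell by 0.65 (SE 0.12, limma adjusted p 0.0261) in CD25High cells.

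Markers of other cells moved with the same comparison. Of 8 passing B cell markers 3 were called higher in CD25High cells, and the mean log2 value of the 9 with a probe was 5.66 to 6.12 in CD25High arrays, against 4.91 to 5.25 in CD45High arrays. Cd79b, of the B cell receptor, had 9.59, 9.08, 9.08 and 9.03 in CD25High cells, against 6.84, 7.15, 7.44 and 7.10 in CD45High cells, while Pax5 did not pass the filter. Of 5 passing germinal centre B and plasma cell markers Mzb1 (1.09 ± 0.23) and Xbp1 (0.89 ± 0.13) were called higher, and Jchain, Sdc1, Prdm1 and Mybl1 were among those that did not pass the filter. That list averaged 6.09 to 6.60 in CD25High arrays, against 5.77 to 6.35 in CD45High arrays. Fcer1g, 1 of 6 passing myeloid markers, was called higher (2.46 ± 0.25), with the list at 5.06 to 5.43 in CD25High arrays, against 4.49 to 4.93 in CD45High arrays, and Cd14, Csf1r, Itgam, Itgax and S100a9 not passing. Nkg7, 1 of 4 passing CD8 T and NK cell markers, was called higher (1.64 ± 0.26), with the list at 5.65 to 5.78 in CD25High arrays, against 5.53 to 5.71 in CD45High arrays, and Cd8a, Ncr1, Eomes and Gzmb not passing. Of 8 naive T cell markers 5 were called lower in CD25High cells, and the list averaged 8.83 to 9.17 in CD25High arrays, against 9.97 to 10.14 in CD45High arrays. The erythroid and platelet list, with 1 of 7 genes passing and 0 called, averaged 4.74 to 5.25 in CD25High arrays, against 4.71 to 4.96 in CD45High arrays. The part of these cells in the differences of the cell cycle genes was not tested.

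The comparison of stimulated with unstimulated cells asked how the genes stood after 30 min of receptor stimulation. E2f2 and Tk1 were called lower and no member higher. These were 2 of 30 members called lower and 0 higher (limma), where 8.1% of all probes were called lower and 7.93% higher. Neither count is above the share of all probes, so the counts are no result about the members as a set. The median difference of the members was 0.02, against -0.0019 for all probes, and by role it lay between -0.27 for nucleotide supply and 0.30 for the 2 fork genes. At an unadjusted p under 0.05 (limma) there were 5 members, where 34.3% of all probes were, so this count is no result either. Left out in turn, the WT CD25High or the KO CD45High pair left 0 members called lower, and without the WT CD45High pair 1 member was called higher. Values are given here in the order KO CD25High, WT CD25High, KO CD45High and WT CD45High within each state.

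E2f2 had 8.14, 7.37, 6.82 and 7.10 in stimulated cells, against 9.22, 9.22, 8.68 and 8.59 in unstimulated cells. All 4 stimulated arrays lay below all 4 unstimulated arrays, the only member of which this held in either direction, where 9.5% of all probes were lower without overlap. It fell by 1.57 (SE 0.17, limma adjusted p 0.00748), so that the unstimulated level was 2.97-fold the stimulated one, and a second probe fell by 1.46 (SE 0.17, limma adjusted p 0.00761). Without the KO CD25High pair, which holds the array that stood apart, the E2f2 difference was -1.73 (limma adjusted p 0.00108), while without the WT CD25High or the KO CD45High pair it was -1.48 in both and missed the threshold (limma adjusted p 0.0615 and 0.0504). Tk1 had 5.997, 5.70, 4.21 and 4.72 in stimulated cells, against 6.999, 7.08, 5.12 and 4.86 in unstimulated cells. It was detected on 2 stimulated and 3 unstimulated arrays and was lower after stimulation in all 4 pairs, as 21.8% of all probes were. Tk1 fell least in WT CD45High cells, and by 0.86 over all pairs (SE 0.21, limma adjusted p 0.0397). The Tk1 call ended in 5 of 11 alternatives. These were without the WT CD25High pair (-0.68, limma adjusted p 0.167) and without the KO CD45High pair (-0.84, limma adjusted p 0.129). It also ended without background correction, with cyclic loess normalization and with no filter on dim probes.

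Pcna was higher after stimulation in all 4 pairs, as 21.9% of all probes were, and was not called. It had 5.57, 4.84, 5.60 and 5.21 in stimulated cells, against 4.88, 4.65, 5.06 and 4.74 in unstimulated cells, a difference of 0.47 ± 0.13 (limma adjusted p 0.0583). Pcna was detected on all 4 stimulated arrays but on 2 of 4 unstimulated arrays, so this difference rests on values near the detection limit. Cdt1 differed by 0.60 ± 0.18 (limma adjusted p 0.0736). Tyms differed by -0.50 ± 0.17 (limma adjusted p 0.0925), with all 4 pairs below 0, as for 21.8% of all probes. Mcm3 differed by -0.56 ± 0.38, of which the KO CD25High pair made -2.17, and without that pair by -0.02. The mitotic genes that led the population comparison did not pass the test here: Birc5 differed by 0.20 ± 0.21, Top2a by -0.26 ± 0.19 and Cdk1 by -0.17 ± 0.19. The other passing Birc5 probes went the other way, at -0.27 ± 0.19 and -0.27 ± 0.16, and were not called.

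**Figure D3:**
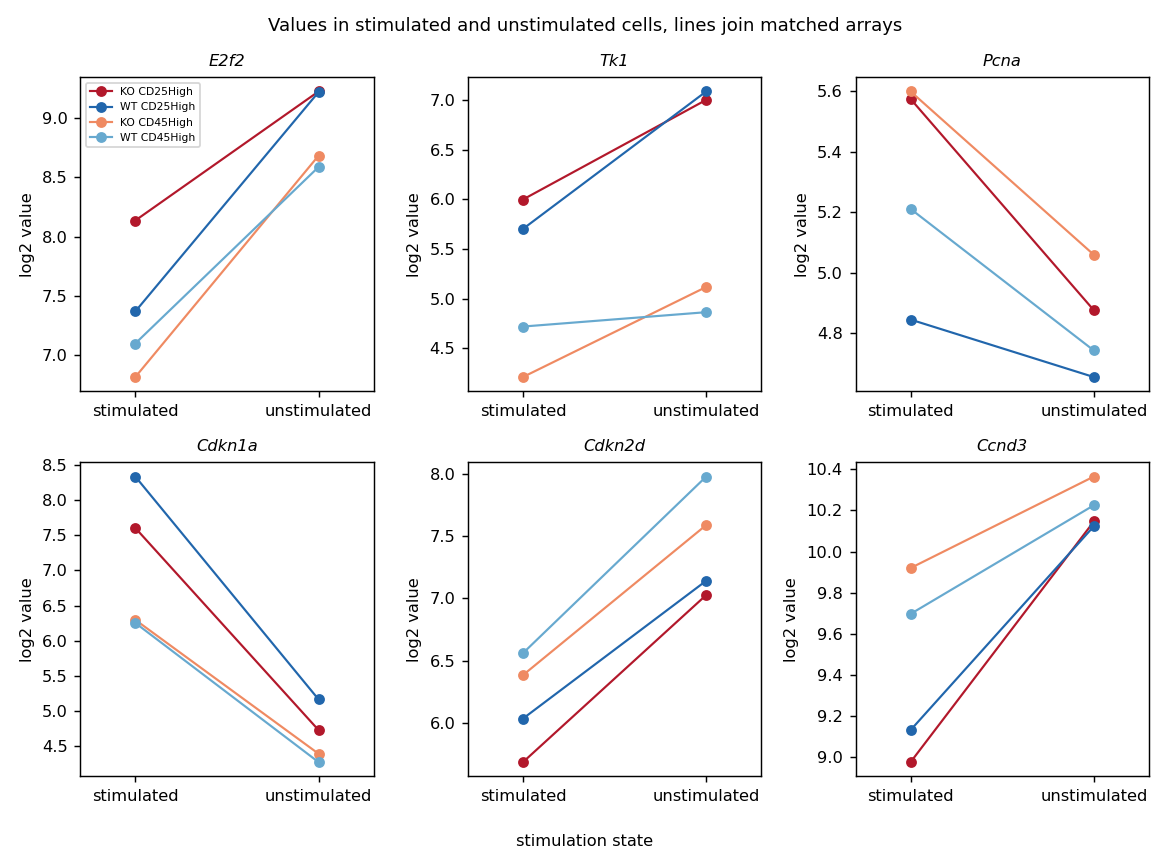
Log2 values of E2f2, Tk1, Pcna, Cdkn1a, Cdkn2d and Ccnd3 in stimulated (left) and unstimulated (right) cells, each line joining the 2 arrays of the same genotype and population. E2f2, Tk1, Cdkn2d and Ccnd3 are lower and Cdkn1a and Pcna higher on the left in all 4 pairs, and each panel has its own vertical axis.

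Within CD25High cells E2f2 (-1.47 ± 0.24, limma adjusted p 0.0218) and Tk1 (-1.19 ± 0.24, limma adjusted p 0.0325) were called lower and 0 members higher, where 6.77% of all probes were called lower and 7.36% higher. Within CD45High cells, where 0.244% of all probes were called lower and 0.697% higher, no member was called by limma. There 2 members had an unadjusted p under 0.05 (limma), as 19.2% of all probes had, and E2f2 stood at -1.68 ± 0.24 (limma adjusted p 0.0503). The stimulation difference in CD25High cells minus that in CD45High cells was 0.21 ± 0.34 for E2f2 and -0.67 ± 0.34 for Tk1, and neither was called (limma adjusted p 0.836 and 0.562). By their brightest probes Birc5 and Aurka were higher by 0.63 ± 0.18 and 0.58 ± 0.17 in stimulated CD25High cells and stood at -0.22 ± 0.18 and -0.25 ± 0.17 in CD45High cells. None of these 4 values was called (lowest limma adjusted p 0.0659), nor was either difference between populations (limma adjusted p 0.467 for both).

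Of the 82 other pathway genes, 4 (4.88%) were called higher and 6 (7.32%) lower after stimulation, shares below the 7.93% and 8.1% of all probes, so the counts are no result about the pathway. Among cyclins D and inhibitors of cyclin-dependent kinases, Cdkn1a, or p21, had 7.60, 8.33, 6.30 and 6.25 in stimulated cells, against 4.73, 5.17, 4.39 and 4.27 in unstimulated cells. It rose by 2.48 ± 0.24 (limma adjusted p 0.00628), was detected on 2 of 4 unstimulated arrays, and every stimulated array was above every unstimulated one. Cdkn2d had 5.69, 6.04, 6.39 and 6.56 in stimulated cells, against 7.03, 7.14, 7.59 and 7.98 in unstimulated cells, and fell by 1.26 (SE 0.12, limma adjusted p 0.00628). Ccnd3, a D cyclin, had 8.98, 9.13, 9.92 and 9.70 in stimulated cells, against 10.15, 10.12, 10.36 and 10.23 in unstimulated cells, and fell by 0.78 (SE 0.16, limma adjusted p 0.0273). Both separated the states without overlap. Ccng1 rose by 0.49 ± 0.12, E2f5, a repressor E2F, by 0.60 ± 0.15, and the polymerase epsilon subunit Pole3 by 0.77 ± 0.12. The origin recognition subunit Orc5 fell by 0.65 (SE 0.15), Timeless of the fork protection complex by 0.55 (SE 0.13), the maintenance methyltransferase Dnmt1 by 0.46 (SE 0.12) and the chromatin assembly subunit Chaf1b by 0.80 (SE 0.18), with limma adjusted p from 0.0317 to 0.0468 for these 4. None of the 20 condensin, kinetochore and spindle genes was called over all pairs.

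Some markers of other cells were called with stimulation as well, while the ranges of the B cell, myeloid and CD8 T and NK cell lists overlapped. The B cell list averaged 4.94 to 6.12 in stimulated arrays, against 4.91 to 5.66 in unstimulated arrays, with Pax5 not passing. Of 5 passing germinal centre B and plasma cell markers 3 were called higher, among them Irf4 (3.15 ± 0.40), which activated T cells also make, and the list averaged 6.35 to 6.60 in stimulated arrays, against 5.77 to 6.11 in unstimulated arrays. Lyz2 of the myeloid list was called lower (-2.19 ± 0.56), with the list at 4.49 to 5.43 in stimulated arrays, against 4.82 to 5.09 in unstimulated arrays. Cd8b1 (-0.63 ± 0.12) and Nkg7 (-1.29 ± 0.22) of 4 passing CD8 T and NK cell markers were called lower, with the list at 5.53 to 5.78 in stimulated arrays, against 5.65 to 5.74 in unstimulated arrays. Of the regulatory T cell markers 3 were called higher and 3 lower after stimulation, of the naive T cell markers 2 higher and 1 lower, and of the general T cell and the erythroid markers 0. The part of these cells in the differences of E2f2 and Tk1 was not tested.

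The comparison of genotypes asked whether loss of miR-21 changed these genes. No member passed the test between KO and WT cells: 0 of 30 members and 0 of 11047 probes were called in either direction (limma), so 0% of all probes were called higher and 0% lower. At an unadjusted p under 0.05 there were 4 members and 1083 probes. The median difference was 0.13 for the members, against 0.04 for all probes, and 0.05 for the members without the pair of the KO CD25High stimulated array. None of the 82 other pathway genes was called either. Without that pair 11 of them had an unadjusted p under 0.05 (limma), as did 1236 of all 11047 probes. In simulated data with known changes a log2 change of 1 between KO and WT was recovered in 57% and a change of 2 in 86% of changed probes, and smaller changes were not simulated. The simulated noise had the same spread on all arrays and left out differences of the genotype effect between populations. These shares are therefore not the power of the test on the real pairs. Values follow in the order CD25High stimulated, CD45High stimulated, CD25High unstimulated and CD45High unstimulated within each genotype.

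The 4 members with an unadjusted p under 0.05 were Gsg2, Pcna, Plk1 and Mcm3. Gsg2, the kinase Haspin that marks histone H3 in mitosis, had 6.99, 6.75, 6.58 and 6.72 in KO cells, against 5.64, 5.82, 5.91 and 6.15 in WT cells. Every KO array was above every WT array, which held for no other member and for 1.36% of all probes, while no member was lower in every KO array, as 1.63% of all probes were. The difference was 0.88 ± 0.16 (unadjusted p 0.00113, limma adjusted p 0.493), and 0.73 without the pair of the KO CD25High stimulated array (limma adjusted p 0.222). Between CD25High and CD45High cells Gsg2 differed by -0.08 ± 0.13 and between stimulated and unstimulated cells by -0.04 ± 0.16, neither called. In the RefSeq gene table (GRCm38.p6) Gsg2 lies inside the bounds of Itgae, the integrin CD103, on the chromosome that also carries Mir21a. The Itgae probe had 10.09, 5.33, 11.27 and 6.02 in KO cells, against 8.97, 5.92, 10.79 and 5.96 in WT cells, so that the genotypes overlap (difference 0.27 ± 0.27, limma adjusted p 0.657). Itgae rose by 4.47 ± 0.35 in CD25High cells, where Gsg2 did not pass the test.

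Plk1 was higher in KO cells in all 4 pairs. It had 6.28, 5.39, 5.85 and 5.40 in KO cells, against 5.75, 4.83, 5.60 and 5.22 in WT cells, a difference of 0.38 ± 0.12 that was not called (limma adjusted p 0.493). Pcna had 5.57, 5.60, 4.88 and 5.06 in KO cells, against 4.84, 5.21, 4.65 and 4.74 in WT cells, with all 4 pairs above 0 and a difference of 0.41 ± 0.13 (limma adjusted p 0.493). It was detected on all 4 KO arrays but on 2 of 4 WT arrays, so its difference rests on values near the detection limit. For both genes the ranges of the genotypes overlap. Mcm3 had 4.68, 6.04, 6.84 and 6.21 in KO cells, against 7.16, 6.67, 7.11 and 6.62 in WT cells. Its difference of -0.95 ± 0.37 (limma adjusted p 0.493) was -0.43 without the pair of the KO CD25High stimulated array, and all 4 pairs were below 0, as for 10.1% of all probes. Mcm7 was also below 0 in all 4 pairs (-0.42 ± 0.21), and Mcm5, Cdk2 and E2f1 were above 0 in all 4, as were 13.5% of all probes, none of the members being called. For Cdk2 this held for the brightest probe, at 0.17 ± 0.10. Its other passing probes had mean differences in the other direction, at -0.44 ± 0.12, -0.04 ± 0.11 and -0.78 ± 0.52, none called.

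**Figure D4:**
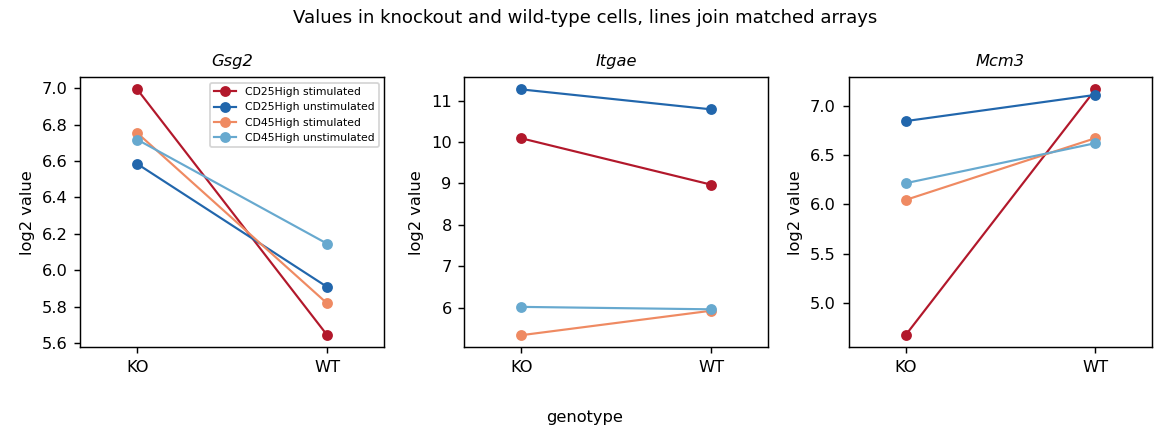
Log2 values of Gsg2, Itgae and Mcm3 in KO (left) and WT (right) cells, each line joining the 2 arrays of the same population and stimulation state, with a vertical axis of its own in each panel. All 4 KO values of Gsg2 lie above all 4 WT values, those of Itgae overlap, and Mcm3 is lowest on the KO CD25High stimulated array at 4.68.

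Within CD25High, CD45High, stimulated or unstimulated cells taken alone, no member and no probe was called between KO and WT (limma), with 5, 1, 5 and 1 members and 1797, 139, 1580 and 231 probes at an unadjusted p under 0.05, in that order. The spread of the genotype difference over all probes was 0.817 (SD) in the stimulated CD25High pair, against 0.234 to 0.300 in the other pairs. With the CD25High unstimulated pair left out, 10 members were called in CD25High cells, and with the CD45High stimulated pair left out, 11 were called in stimulated cells. Both counts rest on the pair of the KO CD25High stimulated array alone. None of the passing markers of other cells was called between genotypes.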

How the data were processed

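Total RNA of 8 sorted mouse CD4 T cell samples was hybridised to MouseRef-8 v2.0 arrays, with 1 array per combination of genotype, population and stimulation. The authors deposited, per the file headers, intensity summaries per probe with bead counts, bead errors and a detection p-value per array, and a table of processed log2 values for 14533 probes. The submitters' processing notes name limma, with no version. The authors' log2 values correlated with those used here at 0.9999993 or more.

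The deposited intensities were background corrected with negative control information from the detection p-values, quantile normalized and log2 transformed (neqc, offset 16, limma 3.58.1, R 4.3.3). The analysis kept the 11047 of 25697 probes detected (p below 0.01) in 2 or more arrays. Of all probes, 20733 carried a current symbol and 3872 an older symbol of the RefSeq table (GRCm38.p6), and 1092 were not matched. Differences were tested with limma (lmFit, eBayes), with matched combinations as blocks (3 residual degrees of freedom, 2 within single states) and Benjamini-Hochberg adjustment over all probes. The pairs share a condition, not animals. Pair differences correlated at 0.387 to 0.813 for population, 0.330 to 0.720 for stimulation and 0.0255 to 0.419 for genotype. Nothing in the labels tells separate animals or cultures apart.

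The members and the lists were chosen with earlier results of these data known. Values on every array are given for the members called over all pairs and, in each role group, for those with the largest population, stimulation or genotype difference. Other genes are named where they were called, or where a statement turns on them, and these were chosen after their values were seen. The number of arrays limits the precision, each probe being read on 38 to 40 beads (median per array). The procedure was tested on simulated data: changes of 1 and 2 on the log2 scale were recovered in 66% and 90% of changed probes for population and in 63% and 87% for stimulation, with 11047 probes each. The noise had the same spread on all arrays of a probe. It left out differences of the genotype and stimulation effects between populations, so these shares are not the power on the real pairs. Alternatives covered background correction, normalization, the probe filter, the probe rule, the block, a robust fit and each pair left out. Values of some marker genes are not reported here.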

Additional observations from a re-analysis of the deposited data

Results flagged for a closer look

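The 4 pair differences of each of the 30 members were screened in each of the 3 comparisons for a pair that lay far from the other 3, by the gap to the nearest other pair over the whole range, set against Dixon's critical value for 4 values. In 17 of 90 cases the ratio was above it, where chance gives about 1 in 20, or 4.5. No cause is given for any of them.

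Between CD25High and CD45High cells, the KO stimulated pair lay apart for Mcm3 (ratio 0.930, at -1.37 against 0.49 to 0.63 in the other pairs) and for Tyms (0.844, at 0.29 against 1.05 to 1.19). The WT stimulated pair lay apart for Top2a (0.964, at 1.99 against 1.00 to 1.03), Lig1 (0.888, at 0.44 against 0.82 to 0.87), Mcm6 (0.847, at 0.38 against 0.98 to 1.09) and Ccne1 (0.837, at -0.35 against 0.16 to 0.26).

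Between stimulated and unstimulated cells, the KO CD25High pair lay apart for Mcm3 (0.899, at -2.17 against -0.17 to 0.06) and Rrm1 (0.846, at 1.05 against -0.39 to -0.17). The WT CD25High pair lay apart for Mcm4 (0.991, at -0.30 against 0.06 in each of the others), Cdca8 (0.913, at 0.43 against -0.07 to -0.03) and Top2a (0.854, at 0.41 against -0.57 to -0.42), and the WT CD45High pair for Lig1 (0.840, at 0.43 against -0.02 to 0.05).

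Between KO and WT cells, the stimulated CD25High pair lay apart for Top2a (0.877, at -0.94 against -0.10 to 0.02), Mcm3 (0.838, at -2.49 against -0.63 to -0.27) and Rrm2 (0.833, at 0.89 against -0.26 to -0.07). The stimulated CD45High pair lay apart for Birc5 (0.870, at -0.10 against 0.20 to 0.24) and Lig1 (0.843, at -0.09 against 0.31 to 0.38).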

How the results depend on the processing

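Each count of called members was recomputed with 1 choice changed at a time, and no called value reversed in any of them. For the members called over all pairs, 112 of 163 recomputed calls stayed and 51 fell below the threshold. Mcm3 and E2f1 passed it for population without the KO stimulated pair (limma adjusted p 0.0306 and 0.0388), and the 46 recomputed genotype tests of Gsg2, Plk1, Pcna and Mcm3, none of them called, stayed uncalled. The 12 members higher in CD25High cells became 7 without background correction and 5 with no filter on dim probes, against 14 without the replicate block, and the members' median difference of 0.62 became 0.20 without background correction. The 4 calls in stimulated cells became 1 without background correction, 2 with no filter, 9 with the mean over a gene's probes and 7 with a robust fit. The single call in unstimulated cells became 2 without background correction, 2 with cyclic loess, 0 with no filter, and 3 with the mean over probes and with the robust fit. In KO cells the 0 calls became 1 with the mean over probes and 1 with the robust fit. After stimulation the 0 higher calls became 2 without the replicate block and 1 with the mean over probes or the robust fit. The 2 lower calls became 1 without background correction, with cyclic loess, with no filter and with detection required on all 8 arrays, a filter that Tk1 did not pass. In CD25High cells the 2 calls of stimulation became 0 with no filter, and in CD45High cells the 0 calls became 1 without background correction, with detection on all 8 arrays, with the mean over probes and with the robust fit. With 1 pair left out, the counts ranged from 2 to 14 for members higher in CD25High cells and stayed at 0 for lower ones. They ranged from 0 to 19 in stimulated, 0 to 15 in unstimulated, 0 to 9 in KO and 0 to 4 in WT cells, and for the differences of the population effect from 0 to 9 between states and from 0 to 1 between genotypes. For stimulation they ranged from 0 to 1 for higher and 0 to 2 for lower calls, 0 to 11 in CD25High cells, 0 to 4 in CD45High cells and 0 to 6 for the difference between populations. For genotype they stayed at 0 over all pairs, in CD45High and in unstimulated cells, and ranged from 0 to 10 in CD25High and 0 to 11 in stimulated cells, and for the differences of the genotype effect from 0 to 4 between populations and from 0 to 6 between states. Splits with 1 pair left assume that it varies like the pairs of the other state. Where fewer pairs or more probes entered, the lower power is part of the alternative's construction, and otherwise the cause was not tested. Members detected on no CD45High array have only bounds there.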
